A study of Mus musculus with 18 samples.

Results

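The AP-1 and EGR immediate early genes are 10 transcription factor genes: Fos, Fosb, Fosl1 and Fosl2 of the FOS family, Jun, Junb and Jund of the JUN family, and the zinc-finger genes Egr1, Egr2 and Egr3. They were taken by symbol from a table of 21959 genes. All 10 were in the table and all 10 passed the filter on low counts, which left 13375 genes to test. RNA sequencing measured gene expression in MOVAS cells, a mouse aortic smooth muscle cell line in culture, in 18 libraries. The 6 groups hold 3 libraries each, which the design text calls biological replicates. B_I, D_I and H_I are labelled as given isoliensinine, a plant alkaloid, and nothing else is stated of them. Blank is the untreated control, Dox was given doxorubicin, a DNA-damaging anthracycline, and H2O2 was given hydrogen peroxide, an oxidant. B_I was set against Blank, D_I against Dox and H_I against H2O2, because the titles run in parallel. That D_I was also given doxorubicin and H_I also H2O2 is read from the titles alone. Every isoliensinine effect and difference between backgrounds below rests on this reading. Doxorubicin and H2O2 were used to induce senescence, and the title of the series asks about the removal of senescent smooth muscle cells by natural killer cells. The dose and the treatment time are not given in the labels.

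Immediate early genes are transcribed within minutes of a growth factor, stress or damage signal, from factors already present in the cell. MAP kinases phosphorylate factors such as ELK1, which sits with SRF on CArG boxes, and CREB, which binds cAMP response elements, and so switch these promoters on. FOS proteins pair with JUN proteins to form AP-1, which binds short sites that begin with TGA, while JUN proteins can also pair with each other. EGR proteins bind GC-rich sites and are held back by the corepressors NAB1 and NAB2. In arterial smooth muscle, Egr1 and the AP-1 genes are known for their induction by vessel injury and growth factors.

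The promoter windows of Fos, Jun and Egr2 are shown because they hold a match to a CArG box or to a TGAC motif given below. The Junb window is shown because the values of Junb ran with those of Egr1. These windows are the 250 bases before the annotated start in RefSeq on GRCm38.p6, on the strand of the gene. RefSeq windows were matched by symbol for 7 of the 10 genes. Fosl1, Egr1 and Egr3 were the other 3. The Fos window is chr12:85473640-85473889 (plus strand), the Jun window chr4:95052223-95052472 (minus strand), the Egr2 window chr10:67537619-67537868 (plus strand, one of 5 for that gene) and the Junb window chr8:84978749-84978998 (minus strand). Capitals mark matches to the motifs searched.
Fos: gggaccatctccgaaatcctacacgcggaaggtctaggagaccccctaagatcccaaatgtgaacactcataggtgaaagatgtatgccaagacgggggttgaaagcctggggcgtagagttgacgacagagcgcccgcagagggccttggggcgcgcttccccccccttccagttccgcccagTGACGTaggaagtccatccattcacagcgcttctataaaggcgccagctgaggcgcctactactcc
Jun: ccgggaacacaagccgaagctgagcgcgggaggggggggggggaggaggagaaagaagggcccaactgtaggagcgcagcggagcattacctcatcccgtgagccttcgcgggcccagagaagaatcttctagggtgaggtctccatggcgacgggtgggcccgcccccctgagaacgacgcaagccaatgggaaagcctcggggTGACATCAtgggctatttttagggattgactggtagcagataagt
Egr2: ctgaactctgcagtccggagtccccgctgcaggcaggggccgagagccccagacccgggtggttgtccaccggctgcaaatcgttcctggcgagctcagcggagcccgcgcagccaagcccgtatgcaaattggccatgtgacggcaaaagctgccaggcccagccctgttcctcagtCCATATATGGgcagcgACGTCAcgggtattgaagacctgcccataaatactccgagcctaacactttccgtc
Junb: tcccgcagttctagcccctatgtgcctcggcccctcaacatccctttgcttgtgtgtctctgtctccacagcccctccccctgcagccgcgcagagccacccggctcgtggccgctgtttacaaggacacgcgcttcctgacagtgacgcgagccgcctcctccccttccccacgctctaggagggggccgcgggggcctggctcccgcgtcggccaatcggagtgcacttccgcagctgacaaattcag
Motifs were searched on both strands. The CArG box was searched by its name, and the cAMP element by its core TGACGT and by the looser TGACNTCA. The AP-1 site was searched as TGANTCA and the EGR site as GCGNGGGCG. TGACNTCA leaves a base open, so it is not particular to the cAMP element, and only some of its matches hold TGACGT. The TGACATCA of Jun does not hold it. Fos has TGACGT 66 to 61 bases before the start, Jun has TGACATCA 45 to 38 bases before it, and Egr2 has a CArG box at 72 to 63 bases and ACGTCA, the other strand of TGACGT, at 56 to 51 bases. Of the 32851 windows in the RefSeq table, 1.47% hold a CArG box, 7.49% TGACNTCA, 6.47% TGACGT, 6.75% the AP-1 site and 4.7% the EGR site. The Fosb and Fosl2 windows each hold GCGGGGGCG, and no match was found in the Jund window or in the Junb window above. A match is a string of letters and not a measured binding site. Bases outside these windows were not searched, so an element further from the start would not be seen.

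Totals ran from 12859609 to 23284077 counts per library. The Dox libraries, at 20140802 or more, were deeper than the D_I libraries, at 16921525 or less. On the first principal component of log2 CPM (23.5% of the variance), Blank replicate 4 (-69.7) and B_I replicate 3 (-61.3) stood apart, with the other 16 between -36.2 and 40.1. All 11 smooth muscle markers on a list had a count in some library, but Tagln and Myocd did not pass the filter. The summed markers reached 5142 CPM in Blank replicate 4 and 4438 CPM in B_I replicate 3, against 1274 to 3660 CPM elsewhere. They were at 1378 to 1599 CPM in D_I and 2400 to 2799 CPM in Dox, which do not overlap, and at 2474 to 3119 CPM in H_I and 2814 to 3660 CPM in H2O2, which do. The 7 colon epithelium markers summed to 208 to 699 CPM in H_I and 41.3 to 160 CPM in H2O2, with 0 of the 7 at 0 in any of these 6 libraries, and the highest sum was that of H_I replicate 1. The 6 liver markers summed to 107 to 309.6 CPM in H_I and 34.8 to 98.9 CPM in H2O2, and the 5 endothelial markers to 6.78 to 13.4 CPM in H_I and 4.65 to 6.68 CPM in H2O2. Neither list overlaps there, and all 7 colon and all 6 liver markers were higher on average in H_I (medians log2 2.21 and 1.52), with 0 called by edgeR. Over all 18 libraries, the endothelial markers summed to 4.53 to 13.9 CPM and the 6 macrophage markers to 35.8 to 75.7 CPM. Cd3e, Nkg7, Ncr1 and Adgre1 did not pass the filter. The part of these markers in the values below was not tested. In bulk RNA, fewer cells of a type and less RNA per cell cannot be told apart.

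Egr1 was the most abundant of the 10 per unit of length, at a median over libraries of 50.8 FPKM (reads scaled by gene length and library total). Junb (42.8 FPKM) and Jund (37.9 FPKM) followed, then Jun (12.1 FPKM) and Fosl2 (7.09 FPKM). Fos (3.86 FPKM), Fosl1 (2.93 FPKM), Egr2 (1.57 FPKM), Egr3 (1.17 FPKM) and Fosb (0.869 FPKM) were low. The low members rest on few counts: Fosl1 had 24 counts in B_I replicate 3 and Egr2 32 in Dox replicate 1, whereas Egr1 had at least 2596 in every library. From the lowest to the highest library, Egr2 varied most, by 8.33 times, and Junb and Egr1 least, by 1.82 and 1.83 times. All values below that compare groups are TMM-scaled CPM (counts scaled to the library total and by edgeR's trimmed-mean factors).

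**Figure D1:**
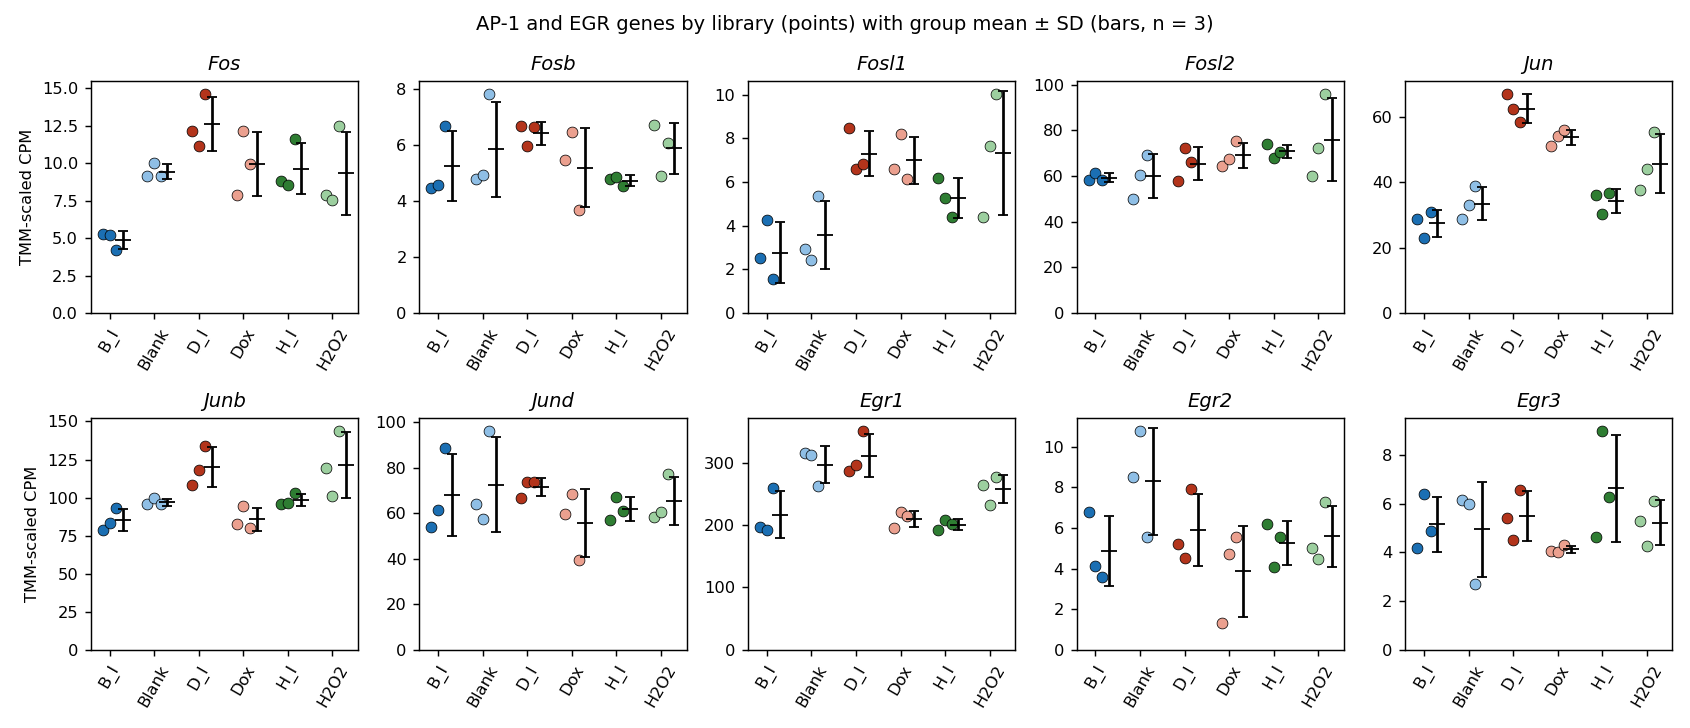
TMM-scaled CPM (vertical axes, from 0, each gene on its own scale) of the 10 genes in 18 libraries. Points are libraries and the crosses beside them the group mean ± SD (n = 3). For Egr1 the 3 D_I libraries lie above the 3 Dox libraries, while the B_I and H_I libraries lie below those of Blank and H2O2.

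The comparison of B_I with Blank asks what isoliensinine did in cells read as unstressed. The 10 genes were mostly lower with isoliensinine (9 negative and 1 positive log2 fold changes, median -0.23 against -0.013 over all tested genes), led by Fos and Egr1, but none passed the test. Without Blank replicate 4, and also with the replicate number as a block, 6 were negative and 4 positive. By edgeR's quasi-likelihood test, 0 of the 10 were called at an adjusted p under 0.05, against 0% of the 13375 tested genes. DESeq2 also called 0 of the 10. At an unadjusted p under 0.05 stood 2 of the 10, Fos and Egr1, and 640 genes in all (4.79%). In 3 of the 10, Fos, Junb and Egr1, every B_I library was lower than every Blank library, which was so for 3.72% of tested genes.

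Fos encodes the founding FOS subunit of AP-1 (ENSMUSG00000021250, chromosome 12, 85520664 to 85524047, plus strand, in the coordinates of the deposited table, which name no genome build). It stood at 5.24, 5.23 and 4.17 CPM in B_I, against 9.15, 9.98 and 9.17 CPM in Blank. All 3 B_I libraries were lower, by a wide gap. The difference was 1.93-fold (log2 -0.95, SE 0.241, edgeR adjusted p = 0.917). Egr1 (ENSMUSG00000038418, chromosome 18, 34992876 to 34998037, plus strand), which encodes an activator of growth factor and matrix genes, was at 198, 192 and 260 CPM in B_I, against 316, 312 and 262 CPM in Blank. The groups nearly touch, because B_I replicate 3 and Blank replicate 4, the libraries that stood apart, held about the same level. The difference was log2 -0.45 (SE 0.119, edgeR adjusted p = 0.917). Without those 2 libraries, which left 2 in each group, it was log2 -0.68 and passed (edgeR adjusted p = 0.00929). They held the highest B_I and the lowest Blank value of Egr1, so leaving them out was bound to widen the difference. They were also chosen with earlier results of these data known, so this pass is not separate evidence. In the other 12 of 13 alternatives Egr1 did not pass. Junb, whose product is a JUN subunit that can restrain Jun (ENSMUSG00000052837, chromosome 8, 85701113 to 85705347, minus strand), was at 78.9, 83.4 and 93.1 CPM in B_I, against 95.5, 99.5 and 95.6 CPM in Blank (log2 -0.19, SE 0.12, edgeR adjusted p = 0.998). Of the rest, Egr2 (log2 -0.77), Fosl1 (-0.35) and Jun (-0.28) were lower on average with overlapping libraries, and Egr3 was at log2 0.051.

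The comparison of D_I with Dox asks the same in cells read as doxorubicin-treated. Here the direction of the members was the opposite: 9 of 10 were higher with isoliensinine and only Fosl2 was lower (median log2 0.35, against -0.0039 over all tested genes). Egr1 and Junb led. By edgeR 0 of the 10 were called, as were 0% of all tested genes. Unadjusted, p was under 0.05 for 2 members, Egr1 and Junb, and for 556 genes (4.16%). DESeq2 called these same 2 members, among 18 genes. Every D_I library was higher than every Dox library for 4 of the 10, Egr1, Junb, Jun and Egr3, against 10.2% of tested genes.

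Egr1 was at 286, 297 and 351 CPM in D_I, against 195, 220 and 215 CPM in Dox. The lowest D_I library was above the highest Dox library, by about as much as the D_I libraries differed among themselves. The difference was 1.48-fold (log2 0.57, SE 0.119, edgeR adjusted p = 0.341; DESeq2 0.00814). This was the third smallest unadjusted p of all tested genes. Junb was at 108, 118 and 134 CPM in D_I, against 82.7, 94.3 and 79.9 CPM in Dox, separate by less than the spread within either group (1.40-fold, log2 0.49, SE 0.119, edgeR adjusted p = 0.653; DESeq2 0.0403). Fitted on the 6 libraries of these groups alone, both genes passed in edgeR, with adjusted p of 0.000662 for Egr1 and 0.0069 for Junb. That fit called 263 genes in all, against 0 in the fit of all 18 libraries, so the pass is not particular to these genes. Jun, the founding JUN subunit (ENSMUSG00000052684, chromosome 4, 94937271 to 94940459, minus strand), was at 66.9, 62.3 and 58.3 CPM in D_I, against 51.1, 54.0 and 55.8 CPM in Dox. Its libraries were separate by a narrow margin and the difference was small (log2 0.22, SE 0.149, edgeR adjusted p = 0.999). Egr3, a relative of Egr1 known from neurons, lymphocytes and muscle spindles (ENSMUSG00000033730, chromosome 14, 70314652 to 70320063, plus strand), was at 5.42, 4.52 and 6.59 CPM in D_I, against 4.05, 4.03 and 4.30 CPM in Dox (log2 0.42, SE 0.317). Fos was at 12.1, 11.1 and 14.6 CPM in D_I, against 7.85, 12.1 and 9.91 CPM in Dox, and these overlap (log2 0.34, SE 0.23). The smooth muscle marker sums of D_I and Dox, and their depths, do not overlap either, and the part of both in these differences was not tested.

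The comparison of H_I with H2O2 asks it in cells read as peroxide-treated. The members again ran mostly lower with isoliensinine (8 negative and 2 positive log2 fold changes, median -0.20, against 0.021 over all tested genes). Egr1, Jun and Junb had the smallest p among them and Fos was level. By edgeR 0 of the 10 were called, as were 0% of tested genes, and DESeq2 called 0 of the 10. Before adjustment p was under 0.05 for 3 members, Egr1, Jun and Junb, and for 915 genes (6.84%). Every H_I library was lower than every H2O2 library for 3 of the 10, Egr1, Jun and Fosb, against 5.12% of tested genes.

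Egr1 was at 192, 209 and 202 CPM in H_I, against 265, 233 and 277 CPM in H2O2 (log2 -0.36, SE 0.119, edgeR adjusted p = 0.453). The 3 H_I libraries lay close together and all below the H2O2 libraries. Jun was at 36.1, 30.2 and 36.7 CPM in H_I, against 37.6, 44.0 and 55.4 CPM in H2O2 (log2 -0.41, SE 0.152, edgeR adjusted p = 0.554). The nearest libraries were separated by less than the spread within either group. Junb was at 95.9, 96.3 and 102.7 CPM in H_I, against 119.5, 100.7 and 143.8 CPM in H2O2, which overlap (log2 -0.30, SE 0.12, edgeR adjusted p = 0.609). Fos was at 8.78, 8.51 and 11.6 CPM in H_I, against 7.90, 7.56 and 12.5 CPM in H2O2, which overlap (log2 0.051, SE 0.235). Fosb, whose product is a FOS subunit with a long-lived splice form in brain (ENSMUSG00000003545, chromosome 7, 19036621 to 19043976, minus strand), was at 4.80, 4.87 and 4.52 CPM in H_I, against 6.70, 4.90 and 6.06 CPM in H2O2 (log2 -0.31, SE 0.28). Without H2O2 replicate 3, 5 members were negative and 5 positive, and leaving out H_I replicate 1 as well gave the same count. Without H_I replicate 1 alone, the library with the highest colon marker sum, 8 were negative and 2 positive.

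**Figure D2:**
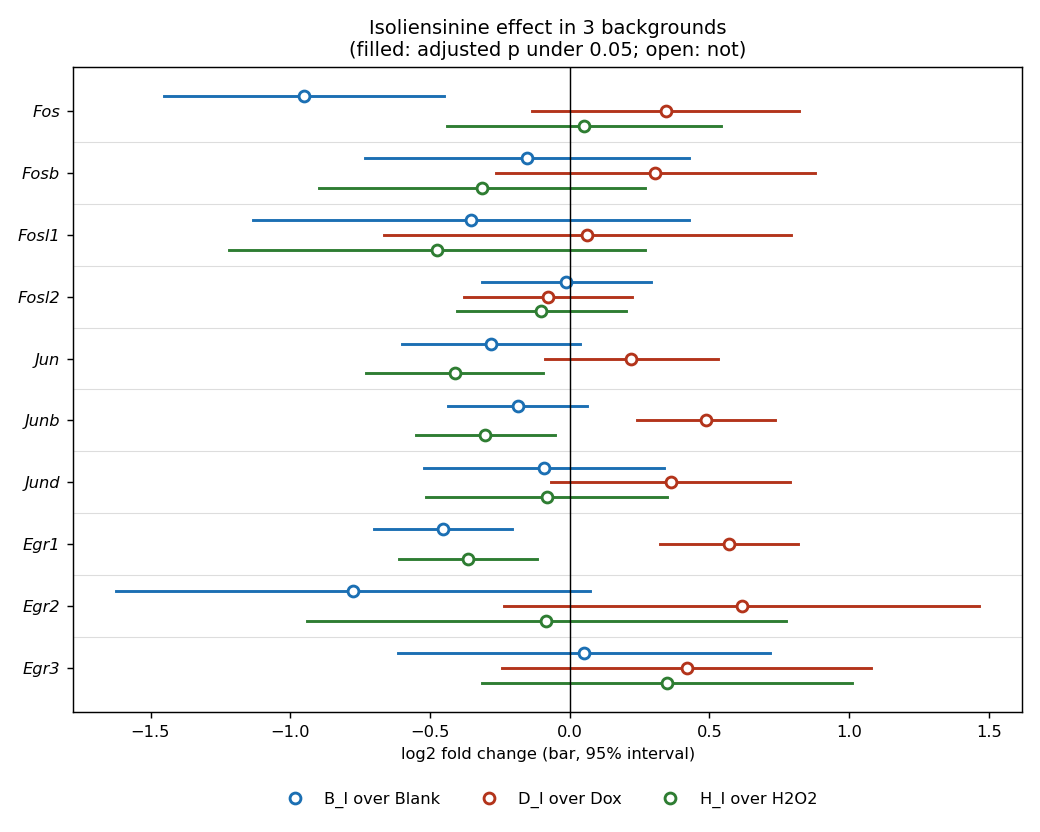
Log2 fold change of each gene with isoliensinine (horizontal axis, point) and its 95% interval (line) for D_I over Dox, B_I over Blank and H_I over H2O2. All points are open because none passed edgeR's adjusted p, and the Egr1 and Junb intervals for D_I over Dox lie wholly above 0.

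The sign of the isoliensinine effect was negative over Blank, positive over Dox and negative over H2O2 for 7 of the 10 genes (Fosb, Fosl1, Jun, Junb, Jund, Egr1 and Egr2). This order of signs held for 12.9% of all tested genes. It held for 4 members with the replicate block (Jun, Junb, Egr1 and Egr2), for 6 without Blank replicate 4 and B_I replicate 3, and for 5 without H2O2 replicate 3 and H_I replicate 1. Fosl2 was negative in all 3 backgrounds (log2 -0.012, -0.077 and -0.10), Egr3 positive in all 3 (0.051, 0.42 and 0.35), and Fos was negative over Blank and positive in the other 2. Some of these signs are of differences near 0, and members of these families can respond to the same signals, so the 7 are not 7 independent observations.

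The difference between backgrounds was tested as a difference of the log2 fold changes. For D_I over Dox minus B_I over Blank it was positive for 9 of the 10 genes (median 0.48, against 0.019 over all tested genes), with 0 called by edgeR, as for 0% of all tested genes. DESeq2 called 1 of the 10, Egr1, among 3 genes. Without adjustment 5 members had a p under 0.05 (Egr1, Junb, Fos, Egr2 and Jun) as did 522 genes (3.9%). Egr1 had the smallest unadjusted p of all 13375 genes. Its difference was log2 1.02 (95% interval 0.67 to 1.37), with an edgeR adjusted p of 0.0625. Alternatives moved this p to both sides of 0.05, with 6 of 19 passing, and the difference stayed between 0.93 and 1.25. The difference was log2 1.29 for Fos (0.60 to 1.99; edgeR adjusted p = 0.812), 0.67 for Junb (0.32 to 1.03; 0.812) and 0.50 for Jun (0.059 to 0.95; edgeR adjusted p above 0.99). For Egr2, an EGR gene known for its part in myelinating cells (ENSMUSG00000037868, chromosome 10, 67371305 to 67378018, plus strand), it was 1.39 with a wide interval (0.19 to 2.59).

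For D_I over Dox minus H_I over H2O2 the difference was positive for all 10 genes (median 0.58, against -0.045 over all tested genes), again with 0 called by edgeR, as for 0% of all tested genes. DESeq2 called 2 of the 10, Egr1 and Junb, among 4 genes. The unadjusted p was under 0.05 for 3 members and for 1054 genes (7.88%). Egr1 and Junb had the smallest and the second smallest unadjusted p of all tested genes. The differences were log2 0.93 for Egr1 (0.58 to 1.28; edgeR adjusted p = 0.22), 0.79 for Junb (0.44 to 1.14; 0.483) and 0.63 for Jun (0.19 to 1.07; 0.532). Without H2O2 replicate 3, 8 of the 10 were positive, and without H_I replicate 1 as well 7.

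H_I over H2O2 minus B_I over Blank split the members evenly, with 5 positive and 5 negative (median -0.040, against 0.034 over all tested genes). Without H2O2 replicate 3 it was positive for 9 and negative for 1, and without H_I replicate 1 as well for 8 and 2. By edgeR 0 of the 10 were called, as were 0% of all tested genes, and DESeq2 called 0 of the 10. Unadjusted, p was under 0.05 for 1 member, Fos, and for 813 genes (6.08%). Fos had the widest gap (log2 1.001, 95% interval 0.30 to 1.70, edgeR adjusted p = 0.765), since it was lower in B_I and level in H_I. For Egr1 the difference was log2 0.092 (-0.26 to 0.44). These 3 differences share arms: each isoliensinine effect enters 2 of them, and any 2 of the differences fix the third. The small Egr1 value thus restates that the 0.93 and 1.02 found with D_I over Dox were alike.

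**Figure D3:**
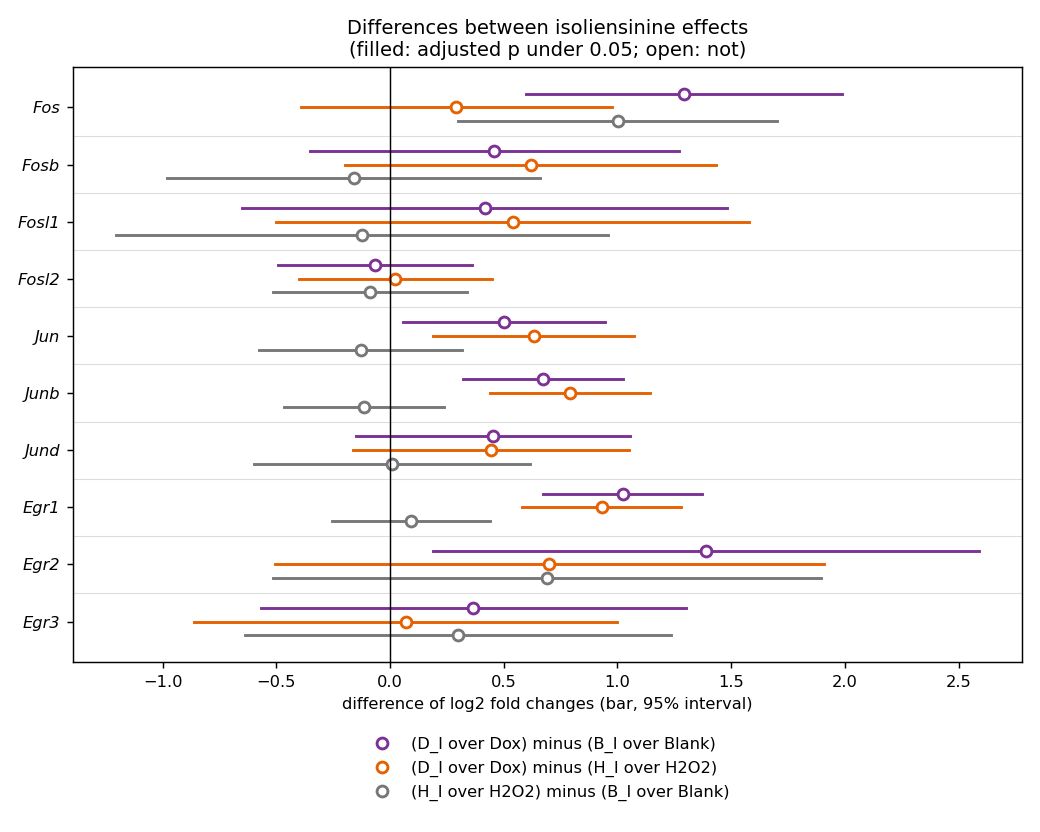
Difference of the isoliensinine log2 fold changes between backgrounds (horizontal axis, point) with its 95% interval (line). The Egr1 points of both differences that involve D_I over Dox lie at 0.93 and 1.02, and that of H_I over H2O2 minus B_I over Blank at 0.092.

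With doxorubicin alone, Jun rose and Egr1 fell against Blank, and the 8 others did not pass the test. With 2 of 10 called, the share is close to the 21.7% of all tested genes called in this comparison (10.3% higher and 11.4% lower). The unadjusted p was under 0.05 for 4 members and for 4387 genes (32.8%). Libraries did not overlap for Jun and Fosl1 (higher) and Egr1 and Junb (lower), 4 of 10 members against 36.1% of tested genes. In the same comparison 4 of 9 tested smooth muscle markers were called higher by edgeR, among them Cnn1 (log2 1.42), Mylk (0.99) and Cald1 (0.98), as was Cd68 (2.07) among 5 tested macrophage markers. Their part in the values of the members was not tested.

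Jun was at 51.1, 54.0 and 55.8 CPM in Dox, against 28.7, 32.9 and 38.8 CPM in Blank, with every Dox library higher. It rose 1.61-fold (log2 0.68, SE 0.151, edgeR adjusted p = 0.0023). Egr1 was at 195, 220 and 215 CPM in Dox, against 316, 312 and 262 CPM in Blank, and fell 1.41-fold (log2 -0.50, SE 0.119, edgeR adjusted p = 0.00413). Both calls held in every alternative, with Egr1 between log2 -0.64 and -0.44. Fosl1, which encodes the FOS subunit FRA1 (ENSMUSG00000024912, chromosome 19, 5497575 to 5505974, plus strand), was at 6.59, 8.20 and 6.16 CPM in Dox, against 2.93, 2.40 and 5.33 CPM in Blank. The Dox libraries were all higher, and Blank replicate 4 was the nearest to them (log2 0.98, SE 0.362, edgeR adjusted p = 0.0576). Egr2 was at 1.29, 4.71 and 5.57 CPM in Dox, against 8.53, 10.8 and 5.56 CPM in Blank, touching at the Blank replicate that stood apart (log2 -1.11, SE 0.409, edgeR adjusted p = 0.0567). Without Blank replicate 4, both passed (Fosl1 log2 1.36, edgeR adjusted p = 0.0152, and Egr2 log2 -1.36, 0.0256). Leaving out this library, the nearest to Dox in both genes, was bound to widen both differences. Over the alternatives Fosl1 passed in 4 of 13 (log2 0.77 to 1.43) and Egr2 in 7 of 13 (log2 -1.50 to -0.69). Junb was at log2 -0.18 (SE 0.119) and Jund, the JUN subunit usually present in resting cells (ENSMUSG00000071076, chromosome 8, 71151599 to 71153265, plus strand), at log2 -0.38 (SE 0.205).

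H2O2 alone left the 10 genes uncalled by edgeR (0 of 10, against 1.43% of all tested genes), and by DESeq2 as well. The unadjusted p was under 0.05 for 4 members, Fosl1, Fosl2, Jun and Junb, all positive, and for 1813 genes (13.6%). Junb had separate libraries, at 119.5, 100.7 and 143.8 CPM in H2O2, against 95.5, 99.5 and 95.6 CPM in Blank (log2 0.32, SE 0.12, edgeR adjusted p = 0.199). The nearest libraries, 100.7 CPM in H2O2 and 99.5 CPM in Blank, almost met, and every H2O2 library was higher than every Blank library for 5.91% of tested genes. Fosl1 was at 4.37, 7.62 and 10.02 CPM in H2O2, against 2.93, 2.40 and 5.33 CPM in Blank (log2 1.05, SE 0.366, edgeR adjusted p = 0.172), and Jun was at log2 0.45 (SE 0.152, edgeR adjusted p = 0.16). Without Blank replicate 4 and B_I replicate 3 both passed (Fosl1 log2 1.47, edgeR adjusted p = 0.0165, and Jun log2 0.58, 0.0252). Blank replicate 4 held the highest Blank value of both genes, so leaving it out was bound to widen both differences. In the other 12 of 13 alternatives neither passed. Fosl2, which encodes FRA2 (ENSMUSG00000029135, chromosome 5, 32293145 to 32315186, plus strand), was at 59.9, 72.2 and 95.9 CPM in H2O2, against 50.0, 60.3 and 69.4 CPM in Blank (log2 0.34, SE 0.146). Fos (log2 -0.021) and Fosb (0.012) were level. These 2 comparisons share the Blank libraries, and Dox and H2O2 also serve as the libraries that D_I and H_I were set against, so a low or high library in a shared group enters more than 1 value.

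**Figure D4:**
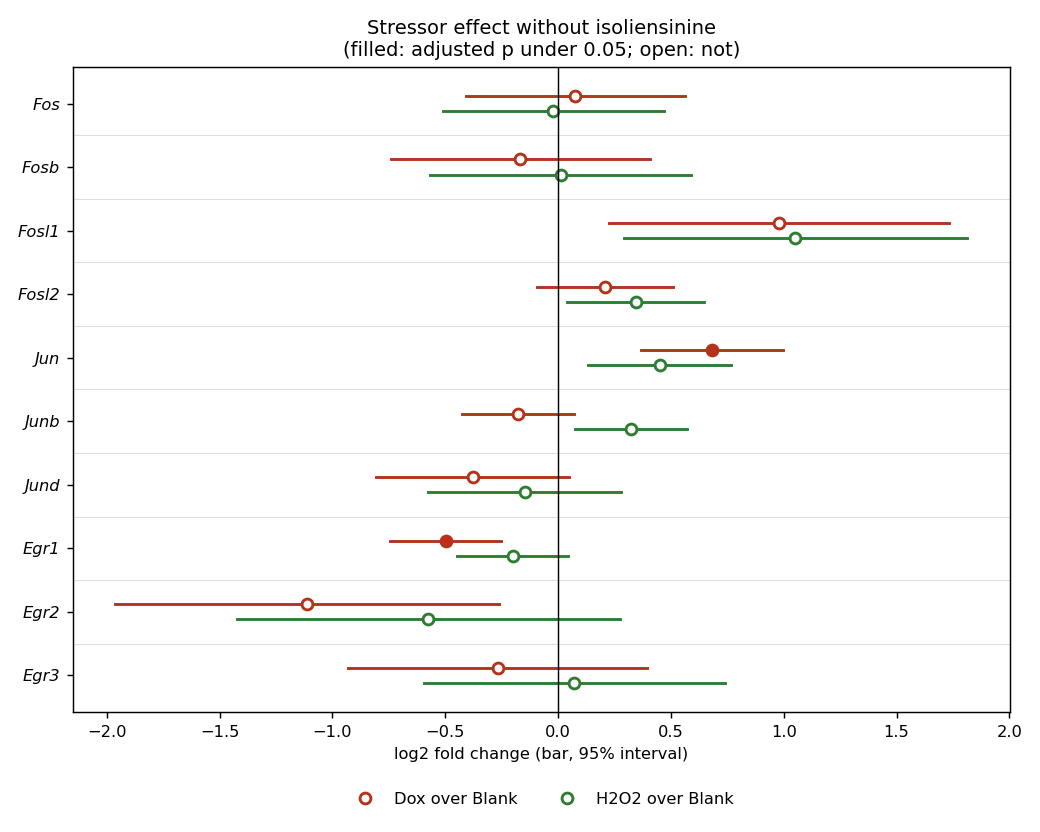
Log2 fold change of each gene for Dox over Blank and H2O2 over Blank (horizontal axis, point) with its 95% interval (line). The filled points, those that passed, are Jun (0.68) and Egr1 (-0.50) in Dox over Blank.

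Ordered by mean level, Egr1 was at 311 ± 34.9 CPM in D_I, 297 ± 29.9 in Blank, 258 ± 22.6 in H2O2, 217 ± 37.8 in B_I, 210 ± 13.3 in Dox and 201 ± 8.6 in H_I (SD, n = 3 each). D_I and Blank overlap, and so do B_I, Dox and H_I. Jun was at 62.5 ± 4.29 CPM in D_I, 53.6 ± 2.33 in Dox, 45.7 ± 8.98 in H2O2, 34.3 ± 3.61 in H_I, 33.4 ± 5.06 in Blank and 27.5 ± 4.12 in B_I. D_I and Dox thus had the highest means. The libraries of Dox and H2O2 overlap, and so do those of H_I, Blank and B_I. Fos was highest in D_I (12.6 ± 1.78 CPM) and lowest in B_I (4.88 ± 0.613), and the 4 groups between them lay at 9.32 to 9.96 CPM, within their spread. For Fosl1 the 2 lowest groups were B_I (2.77 ± 1.38 CPM) and Blank (3.55 ± 1.56). The other 4 groups ran from 5.28 ± 0.906 in H_I to 7.34 ± 2.83 in H2O2.

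The genes around these factors were counted from lists chosen with earlier results of these data known. The 8 lists hold 112 tested genes. With isoliensinine, edgeR called 0 of them in each background and in each difference between backgrounds, where 0% of tested genes were called. DESeq2 called the phosphatase gene Dusp10 in H_I over H2O2 and Phlda1 in H_I over H2O2 minus B_I over Blank. The unadjusted p was under 0.05 for 6 of the 112 in B_I over Blank (5.36%, against 4.79% of all tested genes), 6 in D_I over Dox (5.36%, against 4.16%) and 9 in H_I over H2O2 (8.04%, against 6.84%). In the differences between backgrounds it was 8 for D_I over Dox minus B_I over Blank (7.14%, against 3.9%), 16 for D_I over Dox minus H_I over H2O2 (14.3%, against 7.88%) and 6 for H_I over H2O2 minus B_I over Blank (5.36%, against 6.08%). Among other immediate early genes, 18 of 26 tested were positive in D_I over Dox (median log2 0.072), 11 of 26 in B_I over Blank (-0.031) and 8 of 26 in H_I over H2O2 (-0.18). Among the other AP-1 and ATF genes, which encode further basic leucine zipper partners, the counts were 7, 1 and 3 of 10 (medians 0.13, -0.10 and -0.20). AP-1 target genes did not share the sign of the members over Dox: 4 of 13 were positive in D_I over Dox, 6 in B_I over Blank and 2 in H_I over H2O2 (medians -0.20, -0.029 and -0.17). For EGR target genes these were 4, 2 and 6 of 10 (medians -0.093, -0.099 and 0.086). SRF and CREB regulators (13 genes), the MAP kinase cascade (23) and its feedback inhibitors (15) had medians between -0.23 and 0.065 in the 3 backgrounds. Over all tested genes the medians were -0.013 in B_I over Blank, -0.0039 in D_I over Dox and 0.021 in H_I over H2O2.

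With doxorubicin edgeR called 31 of the 112 listed genes (27.7%), against 21.7% of all tested genes, and with H2O2 10 (8.93%), against 1.43%. Of 13 AP-1 targets, 8 rose and 0 fell, led by Spp1 (osteopontin, log2 2.28), Hbegf (an EGF receptor ligand, 2.22) and Ccnd1 (cyclin D1, 2.04), against 10.3% of tested genes called higher. H2O2 raised 5 of the 13, among them Spp1 (1.28), Ccnd1 (1.26) and Hbegf (1.20), against 0.636% of tested genes called higher. Of 10 other AP-1 and ATF genes, Atf3, a stress-induced repressor and activator (1.19), and the small MAF genes Mafk (1.10) and Maff (1.10) rose with doxorubicin, and Batf3 (-2.34) and Maf (-1.11) fell. With H2O2, Atf3 (1.51), Maff (1.46) and Mafk (0.64) rose and Maf (-0.70) fell. The H2O2 calls of Spp1, Ccnd1, Hbegf, Atf3, Maff, Mafk and Maf, and that of Btg2 below, were lost when the fit held only the H2O2 and Blank libraries (edgeR adjusted p of 0.16 to 0.507). Mafk also lost its call without Blank replicate 1 or 2 or H2O2 replicate 3 (0.0634 to 0.137), and Maf without Blank replicate 1 or 2 or H2O2 replicate 1 or 3 (0.0538 to 0.0767).

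Of 26 other immediate early genes, 7 rose with doxorubicin and 1 fell, against 10.3% of tested genes called higher and 11.4% called lower. Btg2, an antiproliferative p53 target, was at log2 1.61, Csrnp1 at 1.08 and the kinase gene Sgk1 at 0.90, and Zfp36, which destabilises AU-rich mRNAs, fell by 0.61. With H2O2, Btg2 (0.64) rose and the other 25 were not called by edgeR, against 0.636% of tested genes called higher. Btg2 also lost its call without Blank replicate 1 or 2 or H2O2 replicate 1 or 2 (edgeR adjusted p of 0.0687 to 0.123). Among the 15 feedback genes, 3 were called higher with doxorubicin, against 10.3% of tested genes. These were the MAP kinase phosphatase genes Dusp1 (1.38), Dusp10 (1.34) and Dusp16 (0.76). In the cascade, 4 of 23 were called, a smaller share than over all tested genes: Map2k1 rose (0.75) and Mapk3 (-1.14), Map2k2 (-0.49) and Nras (-0.41) fell. Of the 13 SRF and CREB regulators, edgeR called 0 and DESeq2 called Elk1, Creb1 and Crem. By edgeR 4 of the 13 had an unadjusted p under 0.05, against 32.8% of all tested genes. Among 10 EGR targets, 3 were called with doxorubicin, against 21.7% of all tested genes. Thbs1, the matrix protein thrombospondin 1, rose (1.48), and Tgfb1 (-0.77) and Flt1 (-0.62) fell. In edgeR, Csrnp1 (adjusted p 0.0765 to 0.155) and Flt1 (0.0647 to 0.159) lost their calls without Blank replicate 1 or 2 or any Dox replicate, and Dusp16 (0.0551 to 0.108) without Blank replicate 4 or Dox replicate 1 or 3. Csrnp1 was not called by DESeq2 (adjusted p 0.0638), with DESeq2-type size factors (0.0502) or with no filter (0.118), Flt1 was not in the fit of only the compared groups (0.0624), and Dusp16 was not with the replicate block (0.071). Dusp1 (0.05) lost its call without Blank replicate 2 and Zfp36 (0.059) without Dox replicate 1.

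Likeness was measured as Pearson's r of log2 CPM over the 18 libraries, among 9067 other genes with a mean of at least 5 CPM. It describes these libraries, which share depth, treatment groups and the libraries that stood apart. The genes most like Egr1 were Nab2 (r = 0.79), Psap (0.78) and Pde4a (0.77). Those most like Fos were Aplf (0.84), Tsr1 (0.81) and Lrig3 (0.80), those most like Fosl1 included Spring1 (0.88) and Mafk (0.86), and those most like Jun were Tmem63b (0.94), Ext1 (0.93) and Ormdl3 (0.93). Among the members themselves, the highest values were between Fosb and Jund (0.81), Fosl1 and Jun (0.74), Fos and Jun (0.71) and Junb and Egr1 (0.67). Fosb and Jund were both highest in Blank replicate 4 and both lowest in Dox replicate 3.

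Nab2, the corepressor of EGR proteins and itself a known EGR target, was on a list with Nab1. It was at 26.5, 31.2 and 34.5 CPM in D_I, against 20.7, 27.1 and 22.2 CPM in Dox (log2 0.40, SE 0.159, edgeR adjusted p = 0.999). It was at 22.2, 23.4 and 23.1 CPM in B_I, against 27.2, 27.5 and 35.0 CPM in Blank (log2 -0.38, SE 0.161, edgeR adjusted p = 0.998). In H_I it was at 19.0, 20.7 and 19.0 CPM, against 32.1, 22.6 and 29.8 CPM in H2O2 (log2 -0.53, SE 0.162, edgeR adjusted p = 0.399). The B_I and H_I libraries were thus all below those of Blank and H2O2, and D_I overlapped Dox by 1 library. The signs were those of Egr1 in all 3 backgrounds, but Nab2 was also the gene most like Egr1 over these same libraries. The shared signs are therefore not a separate observation. Nab1 was at log2 -0.28, -0.082 and 0.39 over Blank, Dox and H2O2, none of them past the test in edgeR.

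**Figure D5:**
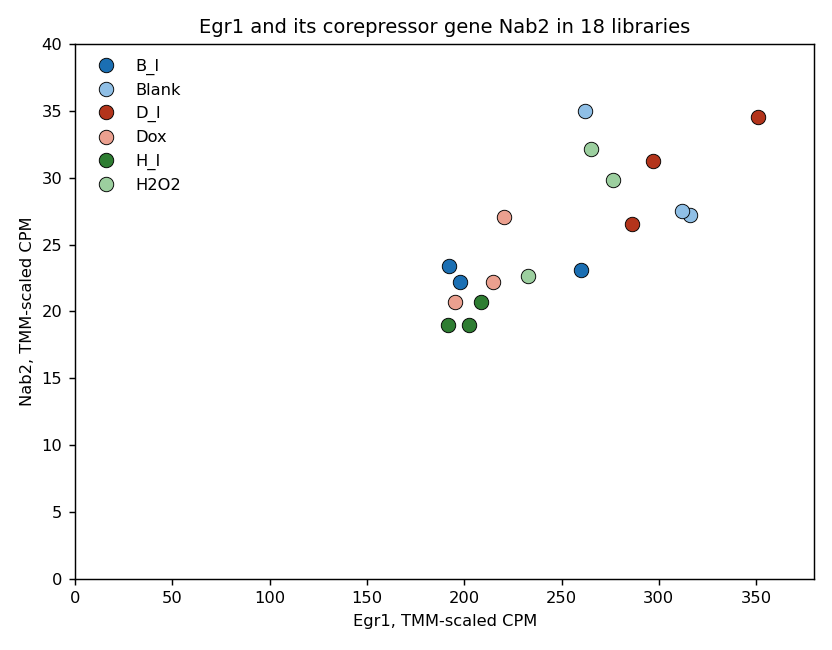
TMM-scaled CPM of Nab2 (vertical axis) against Egr1 (horizontal axis) in the 18 libraries (points, coloured by group), both axes from 0. Pearson's r of the log2 values is 0.79, and the D_I points lie right of and mostly above the Dox points.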

How the data were processed

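Poly-A RNA of 18 MOVAS libraries was sequenced, per the labels' protocols. Per the submitters' processing notes HTSeq 0.9.1, HISAT2 2.1.0 and fastp 0.22.0 were used. Strand, build, dose and time are not given there. The deposited table holds whole-number read counts per gene and library, made by the authors and not normalized. It also holds the authors' FPKM values, and 100% of these equalled the count per gene length and column total within a relative difference of 1e-06. Of 21959 genes, 51 have no symbol. Reads of a gene and an overlapping or antisense gene cannot be told apart without strand.

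Groups came from the titles. Counts were tested in R 4.3.3 with edgeR 4.0.16: its expression filter on the groups (minimum count 10; 13375 genes kept), TMM scaling, a robust quasi-likelihood fit of 18 libraries, each group with its own mean, and Benjamini-Hochberg adjustment over all tested genes. A gene was called at an adjusted p under 0.05. Changes are log2 fold changes with an SE and 95% interval from the quasi-likelihood F statistic. The common biological coefficient of variation was 0.219. Replicates of a group differed by more than sampling noise (chi-square per degree of freedom of at least 5.51).

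The members, lists and libraries to leave out were chosen with earlier results of these data known. All 10 members were named, and from each list up to 3 called genes per direction by size of change with a mean of at least 1 CPM. For Fos, Egr1, Fosl1 and Jun the 3 most alike genes were taken. A gene alike to Fosl1 and a marker list are not reported here. Of the listed genes, 17 did not pass the filter. Alternatives were DESeq2 1.42.0, DESeq2-type size factors, no filter, a fit of only the compared groups, a replicate block, and leaving out libraries. The fit was also run on simulated counts with the same dispersion for every gene and without libraries that stood apart. The outcome of that run is not given here. Intervals of counts are not given, since all values have replicates.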

Additional observations from a re-analysis of the deposited data

Results flagged for a closer look

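Egr1 and Junb were picked out because their isoliensinine effects differed between backgrounds by DESeq2, though not by edgeR. For Egr1, D_I over Dox minus B_I over Blank was log2 1.01 by DESeq2 (adjusted p = 0.000249), against log2 1.02 by edgeR (adjusted p = 0.0625). D_I over Dox minus H_I over H2O2 was log2 0.95 for Egr1 by DESeq2 (adjusted p = 0.0021), against log2 0.93 by edgeR (adjusted p = 0.22). For Junb this difference was log2 0.80 by DESeq2 (adjusted p = 0.0414), against log2 0.79 by edgeR (adjusted p = 0.483). The 3 D_I libraries of each gene were all above the 3 Dox libraries. Egr1 was lower in all 3 B_I and all 3 H_I libraries than in those of Blank and H2O2, and Junb in all 3 B_I libraries, while its H_I and H2O2 libraries overlap.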

How the results depend on the processing

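Jun (higher) and Egr1 (lower) in Dox over Blank kept their calls in every alternative. No call of a member was lost, and 32 of the 1214 gene results of the members were past the threshold only in an alternative. Counts of called members moved from 0 to 1 without Blank replicate 4 and B_I replicate 3 in B_I over Blank (Egr1). In D_I over Dox they moved to 2 by DESeq2 and in the fit of only the compared groups, and to 1 with the replicate block and without Blank replicate 4 and B_I replicate 3. DESeq2 gave no adjusted p for 6 members there. In the D_I minus B_I difference (D_I over Dox minus B_I over Blank) they were 1, Egr1, by DESeq2, with no filter, with the block and without Blank replicate 4 and B_I replicate 3, and 0 to 1 on leaving out a replicate, with 1 without B_I replicate 3 or Blank replicate 4. In the D_I minus H_I difference they were 2 by DESeq2 and 1 with no filter, in the fit of only the compared groups, with the block and without Blank replicate 4 and B_I replicate 3. In Dox over Blank 4, with Fosl1 and Egr2, were called by DESeq2, with the block and without Blank replicate 4 and B_I replicate 3, and 2 to 4 on leaving out a replicate. Of all genes, DESeq2 called 3286 there, the block 2428 and the run without Blank replicate 4 and B_I replicate 3 2973. The fit reported called 2896. In H2O2 over Blank 2 were called without Blank replicate 4 and B_I replicate 3.

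Counts of all genes called also moved. By DESeq2 they were 1 in B_I over Blank, 18 in D_I over Dox, 81 in H_I over H2O2, 3, 2 and 4 in the differences D_I minus B_I, H_I minus B_I and D_I minus H_I, and 411 in H2O2 over Blank, where edgeR called 191 and 0 in the others. With no filter they were 1 in B_I over Blank, 2 in D_I over Dox, and 1 each in the D_I minus B_I and D_I minus H_I differences. In fits of only the compared groups they were 263 in D_I over Dox, 1 in the D_I minus H_I difference and 5 in H2O2 over Blank. With the replicate block they were 4 in D_I over Dox, 2 in H_I over H2O2, 3 in the D_I minus B_I and 1 in the D_I minus H_I difference. Without Blank replicate 4 and B_I replicate 3 they were 3 in B_I over Blank, 21 in D_I over Dox, 17 in H_I over H2O2, 8 in the D_I minus B_I and 1 in the D_I minus H_I difference, and 526 in H2O2 over Blank. Without H2O2 replicate 3 and H_I replicate 1 there was 1 in D_I over Dox. Leaving out a replicate gave 0 to 4 in B_I over Blank and in the D_I minus B_I difference, 0 to 10 in H_I over H2O2, 94 to 259 in H2O2 over Blank and 1876 to 2869 in Dox over Blank. The causes were not tested.

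Libraries with the same number in their titles showed little likeness (correlations between -0.19 and 0.28), and Blank replicate 4 has no partner in the block. Other pairs, such as Blank replicate 4 with B_I replicate 3, were not compared, so pairing beyond the numbers was not tested. With the block, the Egr1 difference D_I minus B_I was log2 1.17 and D_I minus H_I log2 0.92.

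Signs turned in 91 results, none of them called in either fit, with a log2 size of at most 0.42 in the fit reported. By DESeq2, the sign turned in B_I over Blank for Fosl2 (0.00043), in the H_I minus B_I difference for Jund (-0.011). With DESeq2-type size factors, the sign turned in B_I over Blank for Fosl2 (0.00041), in the H_I minus B_I difference for Jund (-0.011). In fits of only the compared groups, the sign turned in B_I over Blank for Fosl2 (0.0019), in the H_I minus B_I difference for Jund (-6.0e-05), in H2O2 over Blank for Fos (0.0044). With the replicate block, the sign turned in B_I over Blank for Egr3 (-0.29), Fosb (0.11), Fosl1 (0.073), Fosl2 (0.063) and Jund (0.12), in the H_I minus B_I difference for Jund (-0.20), in Dox over Blank for Fos (-0.025) and Fosb (0.10), in H2O2 over Blank for Egr3 (-0.26) and Jund (0.069). Without Blank replicate 4 and B_I replicate 3, the sign turned in B_I over Blank for Egr3 (-0.19), Fosl1 (0.35) and Fosl2 (0.12), in the D_I minus B_I difference for Fosl1 (-0.29), in the H_I minus B_I difference for Jund (-0.013), in Dox over Blank for Fosb (0.070), in H2O2 over Blank for Egr3 (-0.21) and Jund (0.12). Without H2O2 replicate 3 and H_I replicate 1, the sign turned in H_I over H2O2 for Egr2 (0.0036), Fosl2 (0.053) and Jund (0.093), in the H_I minus B_I difference for Fosl1 (0.0058), Fosl2 (0.058) and Junb (0.020), in the D_I minus H_I difference for Egr3 (-0.25), Fos (-0.022) and Fosl2 (-0.13), in H2O2 over Blank for Egr3 (-0.027). On leaving out a replicate, the sign turned for the following ranges. In B_I over Blank these were Egr3 (-0.24 to 0.24), Fosb (-0.35 to 0.11), Fosl1 (-0.80 to 0.057), Fosl2 (-0.13 to 0.11) and Jund (-0.31 to 0.16). In D_I over Dox these were Fosl1 (-0.060 to 0.19) and Fosl2 (-0.16 to 0.00020). In H_I over H2O2 these were Egr2 (-0.22 to 0.15), Fos (-0.10 to 0.32), Fosl2 (-0.24 to 0.10) and Jund (-0.16 to 0.054). In the D_I minus B_I difference these were Fosl2 (-0.18 to 0.046). In the H_I minus B_I difference these were Fosb (-0.41 to 0.034), Fosl1 (-0.52 to 0.33), Fosl2 (-0.23 to 0.11), Jun (-0.25 to 0.032), Junb (-0.23 to 0.024) and Jund (-0.23 to 0.23). In the D_I minus H_I difference these were Egr3 (-0.14 to 0.35) and Fosl2 (-0.18 to 0.16). In Dox over Blank these were Fos (-0.083 to 0.23) and Fosb (-0.35 to 0.067). In H2O2 over Blank these were Egr3 (-0.21 to 0.26), Fos (-0.29 to 0.11), Fosb (-0.11 to 0.28) and Jund (-0.30 to 0.11). All 10 differences D_I minus H_I were positive in the fit reported, and 7 to 10 in the alternatives. In D_I over Dox 8 to 9 members were positive where all 10 had a value. The range of positive members was 0 to 4 in B_I over Blank, 1 to 5 in H_I over H2O2, 8 to 10 in the D_I minus B_I and 4 to 9 in the H_I minus B_I difference.

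The low members were measured less precisely than Egr1 and Junb, whose SE of a log2 fold change was 0.118 to 0.12. The SE was 0.35 to 0.41 for Egr2 and Fosl1, 0.317 to 0.32 for Egr3, and 0.23 to 0.28 for Fos and Fosb. Jund, with at least 770 counts in every library, was at 0.205 to 0.206, so the SE did not follow the counts alone. The parts of depth and of the spread between replicates in this were not tested.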
